A study of Mus musculus with 8 samples.

Results

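The matrix metalloprotease (Mmp), ADAMTS (Adamts) and TIMP (Timp) genes were examined in RNA-seq of neonatal cardiomyocytes (NCMs) from mice exposed in utero to diesel exhaust. Members were the rows of the count table whose Entrez ID maps to a protein-coding mouse symbol made of Mmp, Adamts or Timp, a number and an optional letter. This gave 46 of 27179 rows, of which 23 were Mmp, 19 Adamts and 4 Timp genes. The rule itself uses names and no measured value.

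NCMs were isolated on postnatal day 0 from hearts of male C57Bl/6 J offspring, and each library came from 1 heart. Dams had breathed either filtered air (FA, 4 libraries, replicates 2, 3, 4 and 6) or diesel exhaust (DE, 4 libraries, replicates 1, 3, 5 and 7) from E0.5 to E17.5 (embryonic days), and were then moved to a clean vivarium until birth. Hearts of both groups were trimmed of vessels and atria, dissociated enzymatically and plated briefly with Ara-C so that fibroblasts could attach, and the cells left in suspension were collected. The sources used here do not say which pups shared a litter, so the p-values measure the spread between these libraries. The sample names also contain a number whose meaning is not stated, 12 for DE replicates 3 and 5 and 11 for the other 6 libraries.

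MMPs are zinc-dependent endopeptidases that cut collagens and other matrix proteins. Most are secreted as inactive proenzymes, while the membrane-type MMPs sit on the cell surface, where MMP14 together with TIMP2 activates proMMP2. ADAMTS proteases are secreted relatives with thrombospondin repeats that cleave proteoglycans such as versican, remove the propeptides of fibrillar collagens or act on microfibrils. The TIMPs inhibit MMPs, and not all of them inhibit ADAMTS proteases well. In the developing heart these genes take part in remodelling of the cardiac jelly, the valves and the collagen network, and many of them are transcribed mainly by fibroblasts, endocardium and smooth muscle.

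The libraries held between 17943024 and 39839737 counts, and 14966 genes passed the filter on low counts and were tested. Levels are given as CPM, counts per 1000000 counts of a library, after trimmed mean scaling. Of 10 cardiomyocyte markers, 1 was called higher in DE (Myh7) and 1 lower (Myh6), where 3.58% of all genes were called higher and 2.22% lower. Their summed CPM was 75480 to 80744 in FA and 64213 to 74548 in DE. Of 11 fibroblast markers, 4 were called higher in DE (Dpt, Dcn, Col1a1 and Fbln1; 1 to 7 when a single library was left out). Their sum was 2089 to 3588 CPM in FA and 3795 to 6379 CPM in DE, without overlap. Of single genes 14.7% separated the groups, in either direction, and no such share was computed for sums. The part of the marker differences in the results for the Mmp, Adamts and Timp genes was not tested. In a bulk sample fewer cells of a type and less RNA per cell cannot be told apart.

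Of the 23 Mmp genes, 12 were almost silent in these cells, and 10 of these lay side by side. The 10 Mmp genes of the cluster on chromosome 9 (Mmp13, Mmp12, Mmp1b, Mmp3, Mmp1a, Mmp10, Mmp8, Mmp27, Mmp20 and Mmp7 in map order, chr9:7272514-7699585 in GRCm38) held 168 counts together over the 8 libraries. The 13 Mmp genes elsewhere in the genome held 91394. None of the 10 cluster genes passed the filter on low counts, against 11 of the other 13. This cluster holds the 4 collagenases (Mmp1a, Mmp1b, Mmp8 and Mmp13), the stromelysins Mmp3 and Mmp10, the matrilysin Mmp7, the metalloelastase Mmp12 and the enamel protease Mmp20.

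The proximal promoters of these genes shared a sequence that the choice of members did not use. AP-1, the dimer of Fos and Jun family proteins, is a known inducer of metalloprotease transcription and binds TGACTCA and TGAGTCA, each the reverse complement of the other. The search used the wider pattern TGANTCA, which covers both strands. In the 250 bases before and 50 bases after the start of transcription (RefSeq sequences, GRCm38.p6), 8 of the 10 cluster genes had a match, all between 35 and 95 bases before the start. A promoter was at hand for 32 of the 46 members, and 0 of the 22 outside the cluster had a match. All members without a promoter, among them Mmp2, Mmp9, Mmp16, Mmp17 and Mmp19, lay outside the cluster and could not be searched. Over all 27025 genes of the table the share with a match was 8.97%, and over their 32851 promoters 7.81%. With C or G alone at the centre, Mmp20 dropped out, which left 7 of the 10 cluster genes and 0 of the 22 others against 5.95% of all genes. Mmp12 has 2 annotated starts that lie 2977 bases apart, and its match precedes the downstream one. The 8 matches are shown because they set the silent cluster apart from the relatives that could be searched. Each is written 5′ to 3′ on the strand of the gene with 15 bases on either side and the match in capitals.
Mmp13, chr9:7272464-7272500, plus strand: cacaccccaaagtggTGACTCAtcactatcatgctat
Mmp12, chr9:7347315-7347351, plus strand: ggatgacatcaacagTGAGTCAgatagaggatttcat
Mmp1b, chr9:7388098-7388134, minus strand: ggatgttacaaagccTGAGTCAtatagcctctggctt
Mmp3, chr9:7445761-7445797, plus strand: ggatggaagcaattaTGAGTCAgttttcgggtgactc
Mmp1a, chr9:7464053-7464089, plus strand: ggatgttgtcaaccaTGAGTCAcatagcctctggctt
Mmp10, chr9:7502264-7502300, plus strand: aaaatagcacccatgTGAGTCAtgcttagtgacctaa
Mmp20, chr9:7628121-7628157, plus strand: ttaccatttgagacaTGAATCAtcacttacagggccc
Mmp7, chr9:7692012-7692048, plus strand: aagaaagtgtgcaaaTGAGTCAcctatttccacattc

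The flanks of Mmp1a and Mmp1b share most of their bases, so the matches of neighbouring genes need not be independent of each other. The share of all genes with a match is therefore no measure of chance for them. A match is a description of the letters and not a bound site. Mmp8 and Mmp27, the cluster genes without one, had 83 and 2 counts. Transcripts of Fos averaged 388 ± 40.6 CPM in the FA libraries and 388 ± 64.9 CPM in the DE libraries, and those of Jun 218 ± 21.0 and 226 ± 36.7 CPM (SD, n = 4 per group).

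Within the cluster, Mmp8, the neutrophil collagenase, had the most counts. It had 12, 5, 5 and 3 counts in FA replicates 2, 3, 4 and 6 and 29, 13, 6 and 10 counts in DE replicates 1, 3, 5 and 7, the order used for all values by library below. Mmp13, collagenase 3, had 4, 5, 2 and 3 counts in FA and 9, 14, 17 and 3 counts in DE. At these numbers the groups overlapped for both genes. Mmp3 and Mmp12 had 12 counts each over all libraries, and Mmp10 and Mmp27 had 2 each. No count was found for Mmp1a, Mmp1b, Mmp7 or Mmp20, which with 3 counts as the limit that a count of 0 allows puts each at or below 0.0135 CPM over the 8 libraries together. This limit covers counting error only, and it holds only if reads shared by close copies such as Mmp1a and Mmp1b were counted, which the sources used here do not state. Summed over the cluster, the level was 0.395 to 0.498 CPM in FA and 0.748 to 1.36 CPM in DE. These sums did not overlap, and no test was made on them. They rest mainly on Mmp8 and Mmp13, which held 83 and 57 of the cluster's 168 counts and for each of which the groups overlapped. Neutrophil markers, of which 5 of 10 were tested and 0 called (1 without DE replicate 5, and 3 at an unadjusted p of 0.05 or less, edgeR; 25.6% of all genes), summed to 13.9 to 19.1 CPM in FA and 22.2 to 23.9 CPM in DE. Their part in the cluster's counts was not tested.

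**Figure D1:**
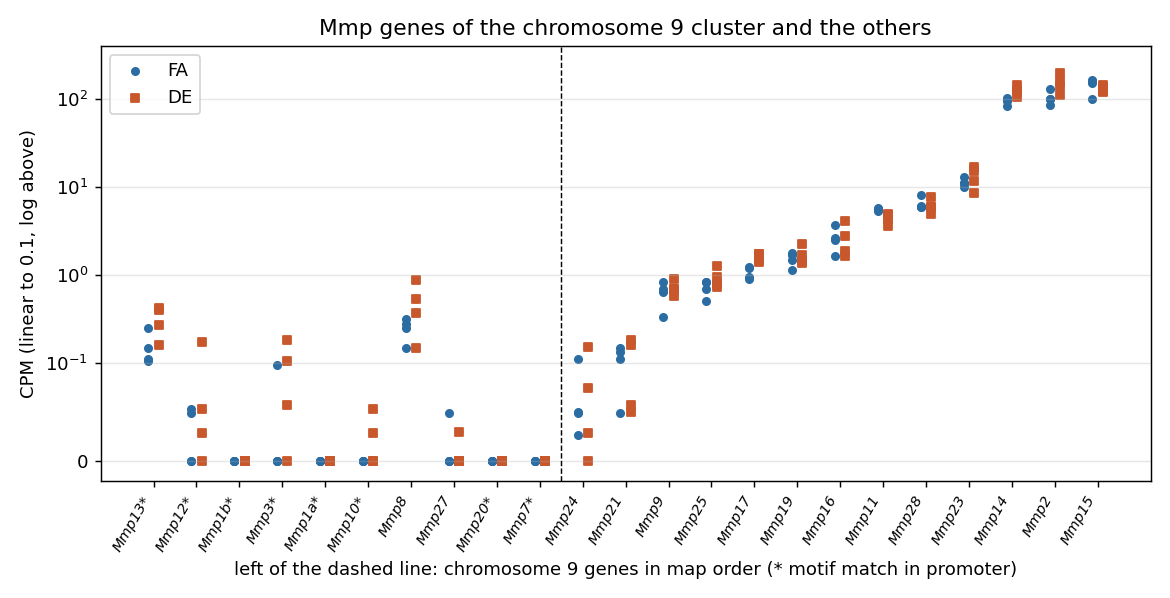
CPM (vertical axis, linear up to 0.1 and logarithmic above) of each Mmp gene in each of the 4 FA (circles) and 4 DE (squares) libraries, with the 10 chromosome 9 cluster genes in map order left of the dashed line and the 13 others by level to the right. No cluster gene exceeded 0.877 CPM in any library, the level of Mmp8 in DE replicate 1, while Mmp2, Mmp14 and Mmp15 lay near or above 100 CPM, and asterisks mark the 8 genes with a match to the motif.

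The other untested members were also near the limit of detection. Mmp21 had 24 counts in all, Mmp24, a membrane-type MMP known from neurons, 14, Adamts13, the von Willebrand factor protease made mainly in liver, 16, and Adamts18 21. Of the 21 Adamts18 counts, 11 were in FA replicate 2. With the 10 cluster genes these made 14 untested members, 12 Mmp and 2 Adamts, against 32 tested, which were 11 Mmp, 17 Adamts and all 4 Timp genes.

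Per kilobase of exon, the scale on which genes can be compared, a few members carried most of each family. Timp3, the TIMP that binds to the matrix, stood highest in FA at 65.3 CPM per kb, and 782 of 13851 tested genes with a length were higher. Adamts1, a versican-cleaving protease, followed at 53.9 CPM per kb and made up 50.7% of the Adamts sum. Timp2, the partner of MMP14, stood at 42.8 CPM per kb. Among the Mmp genes the gelatinase Mmp2 was at 33.5 CPM per kb and the membrane-type genes Mmp15 and Mmp14 at 27.8 and 22.6 CPM per kb, together with Mmp2 most of the Mmp sum (34.3% for Mmp2, 28.5% for Mmp15 and 23.1% for Mmp14). Next came Adamts9 at 14.1, Timp1 at 11.9, Mmp23 at 7.86, Adamts19 at 6.43 and Adamts6 at 6.18 CPM per kb. The other 21 tested members lay below that, down to Adamts16 at 0.0867 CPM per kb. Mmp9, the gelatinase of neutrophils and macrophages, was at 0.197 CPM per kb, far below Mmp2. These lengths come from an annotation that may differ from the one used for counting.

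**Figure D2:**
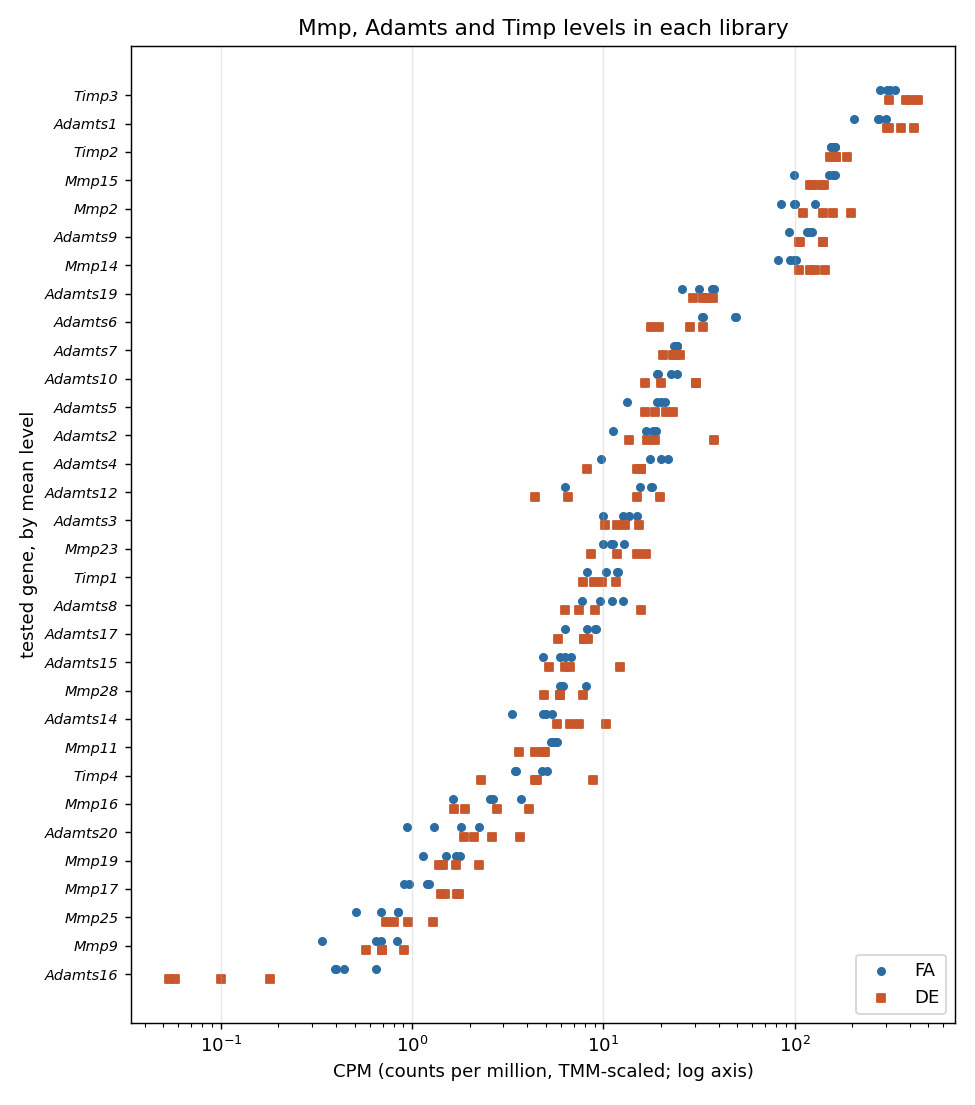
CPM (horizontal axis, logarithmic, not divided by length) of the 32 tested members in each FA (circles) and DE (squares) library, ordered by mean level. Timp3 and Adamts1 had the highest CPM and Adamts16 the lowest, and for most members the points of both groups are interspersed.

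The comparison of DE with FA asked whether exposure before birth changed these genes. The quasi-likelihood test of edgeR was run across the 14966 genes, p-values were adjusted by the Benjamini-Hochberg method, and a call needed an adjusted p of 0.05 or less together with a difference of at least 25%. Of the 32 tested members, 1 was called (Adamts16, lower in DE), which is 3.12% of them, where 5.8% of all tested genes were called (3.58% higher, 2.22% lower). Adamts16 passed the filter on low counts only through its FA libraries, so a call of it could only be lower in DE. No member was called higher. At an unadjusted p of 0.05 or less there were 9 members (28.1%), 7 higher and 2 lower, against 25.6% of all genes. The 8 CPM values separated the groups without overlap for 6 members (18.8%), namely Adamts1, Adamts14, Mmp14 and Mmp17 on the higher side and Mmp11 and Adamts16 on the lower, against 14.7% of all genes. The shares of 28.1% and 18.8% lay near those of all genes. The median log2 fold change of the tested members was 0.11 (0.00371 for all genes), with 19 above 0 and 13 below. When a single library was left out, this median ran from 0.007 (without DE replicate 1) to 0.19 (without DE replicate 5).

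**Figure D3:**
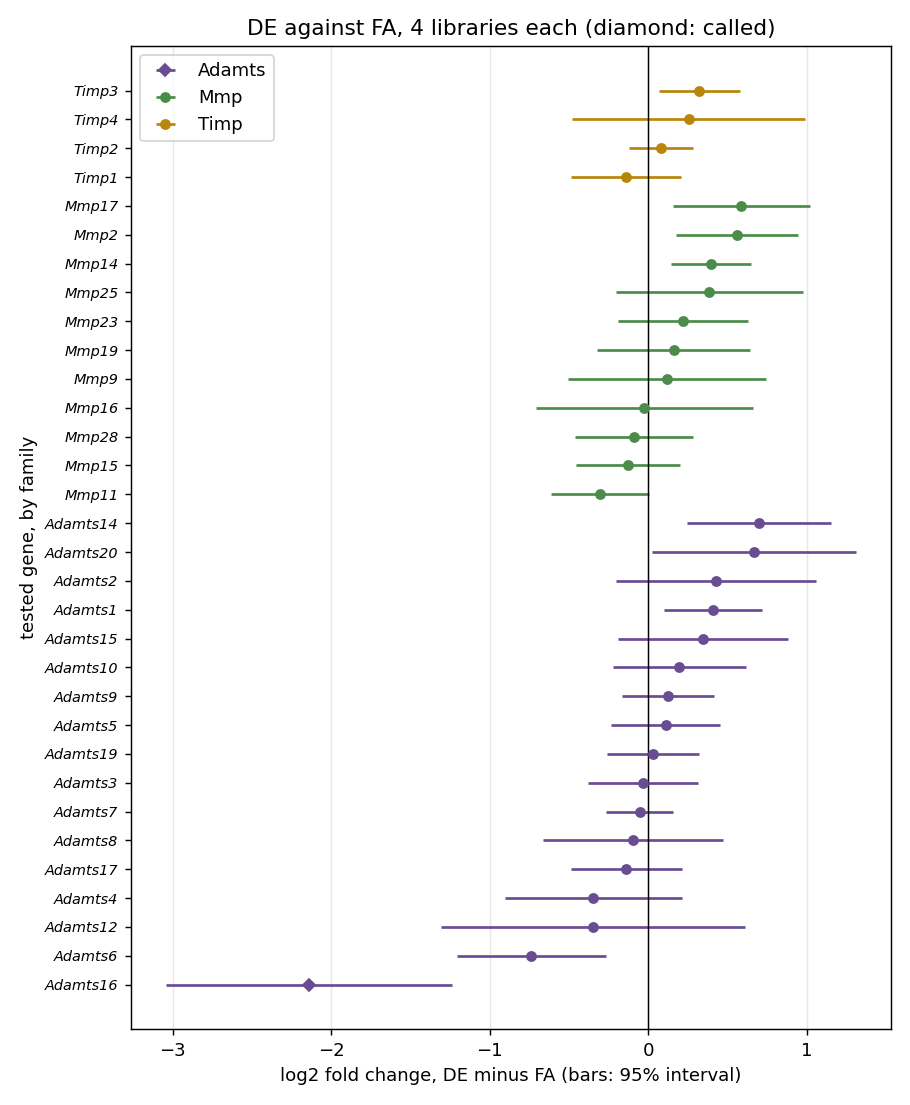
Log2 fold change of DE over FA (horizontal axis; bars are 95% intervals, 4 libraries per group) for the 32 tested members, grouped by family and coloured as Adamts, Mmp or Timp. Adamts16, drawn as a diamond at -2.14, is the single called member, and the intervals of Mmp2, Mmp14, Mmp17, Adamts1, Adamts14, Adamts20, Adamts6 and Timp3 also lie on one side of 0.

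Adamts16, a protease reported to cut fibronectin (Entrez 271127, chr13:70727798-70841845), was the least abundant tested member. Its level was 0.401, 0.648, 0.395 and 0.443 CPM in FA and 0.182, 0.0574, 0.0998 and 0.0533 CPM in DE. Every DE library was below every FA library. The log2 fold change was -2.14 with an SE of 0.41 (edgeR adjusted p = 0.0160). This rests on 57 counts, 15, 13, 7 and 9 in FA and 6, 2, 4 and 1 in DE. Without any 1 of FA replicate 2, DE replicate 1, DE replicate 3 or DE replicate 5 it no longer passed the filter, and DESeq2 gave it no adjusted p. With the number in the sample name as a term the adjusted p was 0.0910 (edgeR). The exposure term of that fit compares only the DE libraries of number 11 with FA.

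Among the gelatinases and membrane-type MMPs, the pair that work together at the cell surface both had higher means in DE without passing the threshold. Mmp2 (chr8:92827290-92853421) was at 100.7, 84.4, 99.4 and 128 CPM in FA and 197, 159, 110.0 and 141 CPM in DE. The FA library with the highest value, replicate 6, lay above DE replicate 5, so the groups overlapped. The means were 103 ± 18.2 and 152 ± 36.3 CPM (SD, n = 4), a log2 fold change of 0.56 with an SE of 0.18 (edgeR adjusted p = 0.0826). Mmp14, which activates proMMP2 (chr14:54431598-54442456), was at 101, 82.3, 95.03 and 98.8 CPM in FA and 128, 144, 105 and 119.6 CPM in DE. All 4 DE libraries were above all 4 FA libraries (means 94.4 ± 8.44 and 124 ± 16.2 CPM), and the log2 fold change was 0.39 with an SE of 0.12 (edgeR adjusted p = 0.0676). DESeq2 and edgeR's likelihood ratio test, which called 10.9% and 10.7% of all genes, called both (adjusted p = 0.0303 and 0.0327 for Mmp2, 0.0242 and 0.0331 for Mmp14), and Mmp2 was also called by the quasi-likelihood test without DE replicate 5 (log2 fold change 0.68, edgeR adjusted p = 0.0415) and not when any other single library was left out (edgeR adjusted p = 0.0557 to 0.197).

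Mmp15, the other abundant membrane-type member, was at 164, 151, 158 and 98.8 CPM in FA and 120.0, 138, 143 and 123 CPM in DE. FA replicate 6 was its lowest library and the other 3 FA libraries its highest. Its interval ran from -0.45 to 0.20 on the log2 scale. Mmp23, a membrane-anchored member, was at 9.97, 11.2, 11.0 and 12.9 CPM in FA and 16.7, 15.03, 11.7 and 8.58 CPM in DE, with the highest and the lowest library both in DE (log2 fold change 0.22, edgeR adjusted p = 0.487). Mmp17, a lipid-anchored member, was between 0.909 and 1.23 CPM in FA and between 1.42 and 1.75 CPM in DE, without overlap (log2 fold change 0.59, edgeR adjusted p = 0.0972). Mmp25, also lipid-anchored, and Mmp16 overlapped widely, with log2 fold changes of 0.39 and -0.03.

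Of the other secreted MMPs, Mmp11 (stromelysin-3), which is activated inside the cell by furin, had the steadiest FA values, 5.43, 5.68, 5.30 and 5.75 CPM, against 4.96, 4.39, 4.86 and 3.62 CPM in DE. The DE libraries were all lower, by a log2 fold change of -0.30 with an SE of 0.14 (edgeR adjusted p = 0.198). Mmp28 (epilysin) was at 6.18, 5.93, 8.07 and 6.00 CPM in FA and 7.78, 5.91, 4.91 and 5.92 CPM in DE, with a log2 fold change of -0.09. Mmp19 lay between 1.15 and 2.24 CPM and Mmp9 between 0.339 and 0.906 CPM over the 8 libraries, with log2 fold changes of 0.16 and 0.12.

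The proteoglycanase group of the Adamts genes had 7 tested members, 0 of which were called and 2 of which, Adamts1 and Adamts20, had an unadjusted p of 0.05 or less (edgeR; 25.6% of all genes did). Adamts1 (chr16:85793827-85803113) was at 299.6, 205, 274 and 275 CPM in FA and 313, 420.3, 303 and 359 CPM in DE. The highest FA library lay just under the lowest DE library. The log2 fold change was 0.41 with an SE of 0.14 (means 263 ± 40.6 and 349 ± 53.5 CPM, edgeR adjusted p = 0.105). Adamts9, which also cleaves versican, was at 123, 93.6, 119.8 and 117 CPM in FA and 107, 140.4, 106 and 141 CPM in DE, with an interval from -0.16 to 0.41 on the log2 scale.

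The aggrecanases had lower levels and no separation. Adamts5 was at 21.0, 13.3, 19.0 and 20.1 CPM in FA and 23.1, 18.7, 16.4 and 21.2 CPM in DE. Adamts4 was at 21.7, 9.72, 17.6 and 20.0 CPM in FA and 15.01, 15.6, 8.21 and 15.7 CPM in DE, so that 1 library of each group, FA replicate 3 and DE replicate 5, lay far under the rest. Adamts8 was at 12.6, 7.77, 9.59 and 11.1 CPM in FA and 15.6, 9.04, 7.43 and 6.29 CPM in DE. The groups overlapped for all 3 of these genes. Adamts15 was between 4.83 and 6.79 CPM in 7 libraries and at 12.2 CPM in DE replicate 1. Adamts20, a protease needed for melanoblast survival, lay between 0.934 and 2.25 CPM in FA and 1.87 and 3.66 CPM in DE (log2 fold change 0.67, edgeR adjusted p = 0.181).

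The 3 procollagen N-propeptidases trim fibrillar collagens before they assemble, and 0 of them were called (1, Adamts14, at an unadjusted p of 0.05 or less, edgeR; 25.6% of all genes). Adamts14 (chr10:61197112-61273419) was at 4.84, 3.34, 5.42 and 5.02 CPM in FA and 10.3, 7.46, 5.69 and 6.72 CPM in DE. The groups did not overlap, and the log2 fold change was 0.70 with an SE of 0.21 (edgeR adjusted p = 0.0702), while DESeq2 and the likelihood ratio test called it (adjusted p = 0.0217 and 0.0249). Adamts2 was at 18.2, 11.3, 18.7 and 16.8 CPM in FA and 38.1, 18.6, 13.6 and 16.9 CPM in DE. Without DE replicate 1, its highest library, the log2 fold change went from 0.43 to 0.007. Adamts3, which acts in lymphatic development through VEGF-C, was at 15.03, 9.96, 13.7 and 12.6 CPM in FA and 15.3, 10.2, 11.8 and 13.0 CPM in DE, with a log2 fold change of -0.04. Col1a1, a collagen that these enzymes process, was called higher in DE, rising from 495 ± 91.5 to 954 ± 167 CPM (SD, n = 4, log2 fold change 0.95, edgeR adjusted p = 0.00874).

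Among the remaining Adamts genes, Adamts6, a microfibril-associated protease required for heart development in mice, had the largest negative log2 fold change after Adamts16. It was at 48.7, 32.9, 49.5 and 33.3 CPM in FA and 33.2, 19.4, 17.8 and 28.5 CPM in DE. DE replicate 1 lay between the 2 lower FA libraries, and the other DE libraries were below all FA libraries. The log2 fold change was -0.74 with an SE of 0.21 (means 41.1 ± 9.25 and 24.7 ± 7.32 CPM, edgeR adjusted p = 0.0652). Without DE replicate 1 the gene was called (log2 fold change -0.92, edgeR adjusted p = 0.0268), and without any other single library it was not (edgeR adjusted p = 0.0626 to 0.187). It was also called by DESeq2 and the likelihood ratio test (adjusted p = 0.0154 and 0.0157), at log2 fold changes of -0.74 and -0.73.

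Adamts7 and Adamts12, which both cleave cartilage oligomeric matrix protein, had the lowest and the highest spread within groups among the 24 members with at least 5 CPM. Adamts7 was at 24.2, 24.4, 24.3 and 23.3 CPM in FA and 23.1, 25.04, 23.6 and 20.6 CPM in DE, with a log2 interval from -0.26 to 0.15. Its coefficient of variation within groups was 5.88%, lower than that of most genes (6.86% of the 10707 genes with at least 5 CPM had a lower one). Adamts12 was at 17.7, 6.28, 17.9 and 15.6 CPM in FA and 19.8, 6.57, 4.36 and 14.98 CPM in DE. FA replicate 3 and DE replicates 3 and 5 lay between 4.36 and 6.57 CPM and the other 5 libraries between 14.98 and 19.8 CPM. Its coefficient of variation was 52.2%, and 99.7% of the genes had a lower one. The median was 16.9% for the 24 members with at least 5 CPM and 12.5% for all genes with at least 5 CPM.

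Adamts10, a microfibril-associated protease, was at 22.5, 19.0, 19.2 and 24.3 CPM in FA and 30.4, 30.4, 20.0 and 16.4 CPM in DE, with an interval from -0.22 to 0.62 on the log2 scale. Adamts17 was at 9.09, 6.33, 8.18 and 9.10 CPM in FA and 8.26, 7.92, 5.79 and 7.89 CPM in DE. Adamts19 was at 36.9, 31.4, 38.04 and 25.9 CPM in FA and 37.3, 29.5, 34.7 and 33.3 CPM in DE, where the difference lay between -0.26 and 0.32 on the log2 scale. None of these 3 separated the groups.

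**Figure D4:**
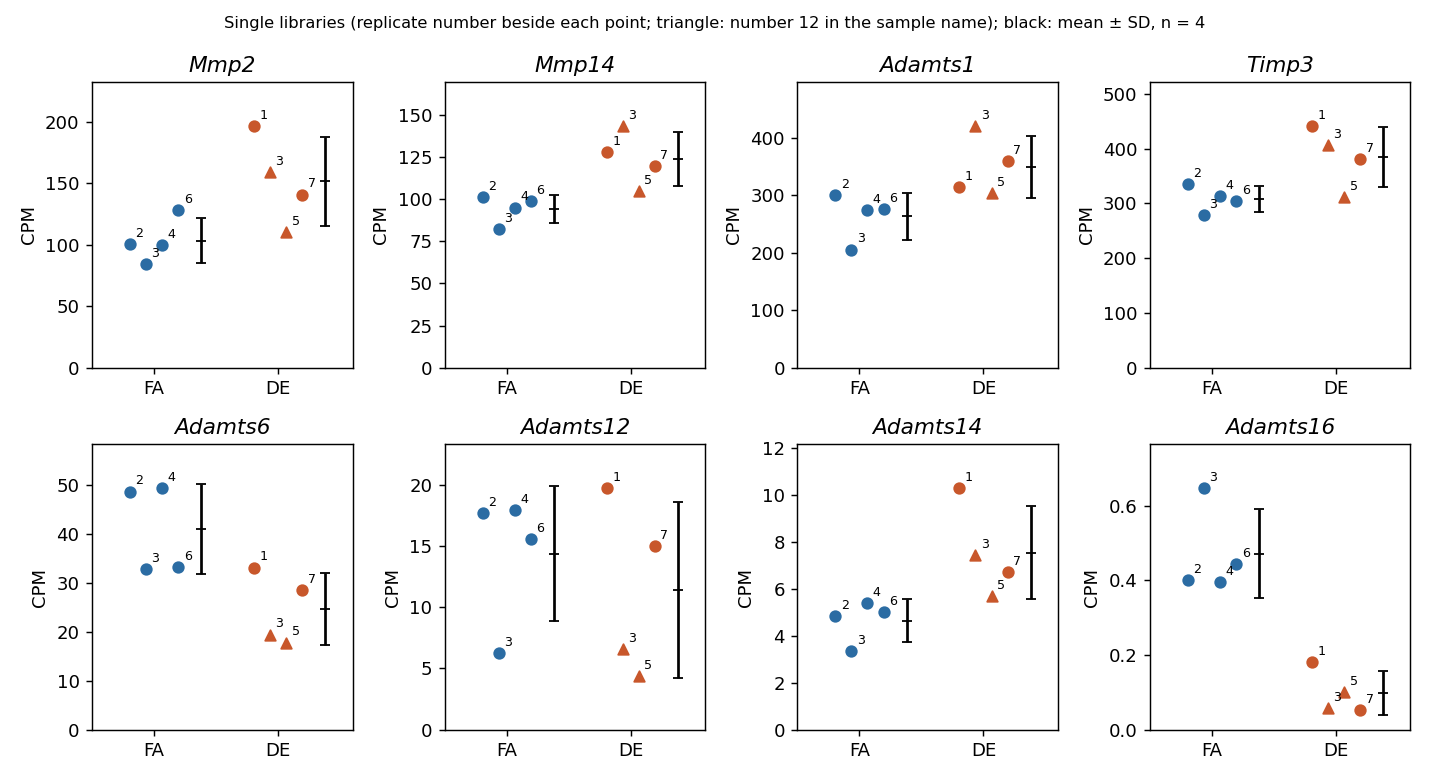
CPM of 8 members in each FA and DE library (vertical axes start at 0; replicate numbers beside the points; triangles are DE libraries with the number 12 in the sample name; black bars are the mean ± SD of 4 libraries). Mmp14, Adamts1, Adamts14 and Adamts16 separate the groups, Mmp2, Timp3 and Adamts6 overlap in 1 or a few libraries, and Adamts12 is low in FA replicate 3 and DE replicates 3 and 5.

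The 4 inhibitors were all tested and 0 were called (1, Timp3, at an unadjusted p of 0.05 or less, edgeR, as for 25.6% of all genes). Timp3 (chr10:86300412-86349505) was at 336, 279, 314 and 305 CPM in FA and 442, 406, 312 and 381 CPM in DE. DE replicate 5 fell within the FA range and the other 3 DE libraries were above it. The means were 308 ± 23.4 and 385 ± 54.7 CPM, with a log2 fold change of 0.32 and an SE of 0.12 (edgeR adjusted p = 0.119). Timp2 was at 162, 155, 162 and 155 CPM in FA and 189, 164, 153 and 165 CPM in DE, with an interval from -0.12 to 0.28 on the log2 scale. Timp1, the inducible TIMP, was at 10.3, 11.8, 8.18 and 11.9 CPM in FA and 11.6, 9.84, 8.88 and 7.83 CPM in DE. Timp4, known for its expression in heart muscle, lay between 3.44 and 5.08 CPM in FA and between 2.29 and 8.81 CPM in DE, the lowest and the highest library both in DE.

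Summed per kilobase, the 23 Mmp genes stood at 90.0 to 101.5 CPM per kb in FA and 102.01 to 136.6 CPM per kb in DE, so that the groups did not overlap but nearly touched. Summed as CPM without division by length they did overlap, at 347 to 394 CPM in FA and 387 to 486 CPM in DE. Of the sum per kilobase, Mmp2 accounted for 34.3% in FA and 41.3% in DE and Mmp15 for 28.5% and 21.4%. The Timp sum overlapped between the groups (115 to 127 CPM per kb in FA, 118 to 159 CPM per kb in DE), as did the Adamts sum (84.4 to 120.4 in FA, 105 to 138 in DE). The ratio of the Timp sum to the Mmp sum was 1.24 ± 0.0360 in FA and 1.16 ± 0.0524 in DE (SD, n = 4), and DE replicate 7, at 1.23, fell within the FA range. These sums were not tested. The fibroblast marker sum, given above, was also higher in all 4 DE libraries, and its part in them was not tested.

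The number in the sample names divides the DE libraries, and a fit with 3 groups gave each number's own values. Between DE libraries with the number 12 and DE libraries with the number 11, 309 genes were called (2.06%), 1 of them a member, Adamts12 (log2 fold change -1.68, edgeR adjusted p = 0.0498). Between DE libraries with the number 11 and FA, the within-number comparison, 448 genes (2.99%) and 0 members were called by edgeR. The fit with the number as a term gives this same contrast and is not a separate result. At an unadjusted p of 0.05 or less there were 11 of 32 members (34.4%) and 17.9% of all genes. There the log2 fold changes were 0.71 for Mmp2, 0.39 for Mmp14, 0.35 for Adamts1, 0.42 for Timp3, 0.89 for Adamts14, -0.41 for Adamts6 and -1.77 for Adamts16. All kept the sign they had with 4 DE libraries, whereas Adamts12 was at 0.27. Between DE libraries with the number 12 and FA, 3499 genes (23.4%) and 3 of 32 members (9.38%) were called, Adamts6 (-1.14, edgeR adjusted p = 0.0031), Adamts12 (-1.40, edgeR adjusted p = 0.0156) and Adamts16, which is subject to the limit given above and had 2 and 4 counts in these DE libraries. No FA library carries the number 12, so in that comparison the number and the exposure cannot be told apart. These 3 comparisons share libraries.

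Other genes that act with or on these enzymes were counted from lists of known functions. Of 17 tested genes that activate, inhibit or clear metalloproteases, 3 were called higher in DE and 0 lower, where 3.58% of all genes were called higher. These were Plau, the urokinase that activates plasminogen (4.89 ± 1.46 to 10.04 ± 2.93 CPM, log2 fold change 1.03, edgeR adjusted p = 0.0364), A2m, the broad protease inhibitor alpha-2-macroglobulin (5.98 ± 1.23 to 11.6 ± 1.47 CPM, log2 fold change 0.96, edgeR adjusted p = 0.00968), and Pcsk6, a proprotein convertase (13.0 ± 2.92 to 21.3 ± 0.896 CPM, log2 fold change 0.71, edgeR adjusted p = 0.0247). The median log2 fold change of the list was 0.30, and the count was 1 to 5 when a single library was left out. Of 22 tested matrix substrates, 3 were called higher (Col1a1, Col5a1 and Dcn; 3.58% of all genes) and 0 lower, with a median of 0.46 and a count of 1 to 6 when a single library was left out. Without DE replicate 3 the counts of both lists were 1. Col1a1 and Dcn are also in the fibroblast list.

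No gene of 3 further lists was called (edgeR), though without DE replicate 1 the ADAM list had 2 calls and the list of other extracellular proteases 1. The 7 ADAMTS-like proteins, which lack a protease domain, had a median log2 fold change of 0.02 and 0 genes at an unadjusted p of 0.05 or less. The 12 membrane-bound ADAM proteases had a median of -0.11 with 4 genes at that level, 3 higher and 1 lower, and the 13 tested other extracellular proteases a median of 0.22 with 3, all higher (25.6% of all genes were at that level). Of 19 tested signals and transcription factors known to induce metalloproteases, 1 was called (5.8% of all genes were), Etv4, an ETS family factor (2.02 ± 0.169 to 4.42 ± 1.02 CPM, log2 fold change 1.14, edgeR adjusted p = 0.00882). A2m, Col1a1, Etv4 and the cardiomyocyte marker Myh6 were picked out by the study on samples of this same series. They are not independent evidence of a direction.

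Markers of other cell types were counted in the same way. Endothelial, smooth muscle and pericyte, mast cell, and epicardial and mesothelial markers gave 0 calls, and 0 to 2, 0 to 1, 0 and 0 to 1 when a single library was left out. At an unadjusted p of 0.05 or less there were 4 of 10, 2 of 10, 0 of 6 and 2 of 8 tested genes (edgeR; 25.6% of all genes). The summed level of smooth muscle and pericyte markers was 1643 to 2225 CPM in FA and 1229 to 1644 CPM in DE. Endothelial markers summed to 1366 to 1852 CPM in FA and 1534 to 2237 CPM in DE. Leukocyte markers gave 1 call of 6 tested genes (Itgam), endocardial 1 of 6 (Tmem100) and erythroid 1 of 6 (Slc4a1), all higher in DE, where 5.8% of all genes were called. All 3 calls were lost without FA replicate 2, FA replicate 4 or DE replicate 3. The leukocyte call was also lost without FA replicate 3, FA replicate 6, DE replicate 5 or DE replicate 7. The endocardial call was also lost without FA replicate 3 or DE replicate 7, and the erythroid call without FA replicate 6 or DE replicate 1. The part of these cells in the values of single members was not tested.

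The levels of some members may include reads of a neighbour, since the setting for strand in the counting was not given in the sources used here. Exons of Adamts7 overlap those of Tbc1d2b on the other strand (17.4 CPM in FA and 19.5 CPM in DE), and those of Adamts9, Mmp28, Mmp19 and Timp4 overlap A730049H05Rik, 1700020L24Rik, Tmem198b and Syn2. Tmem198b, with FA and DE means of 9.59 and 11.2 CPM, was higher than Mmp19 (1.61 CPM over all libraries), and BC029722, whose exons overlap those of the untested Mmp24, was at 5.81 and 6.61 CPM. Timp1 and Timp3 lie within introns of Syn1 and Syn3, without shared exons. Mmp1a and Mmp1b are close copies of each other, and both were at 0 counts.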

How the data were processed

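RNA-seq counts of NCMs from 4 FA and 4 DE hearts were analysed. The authors selected poly-A RNA, made stranded libraries, aligned reads to mm10 with TopHat and counted fragments per gene with featureCounts (versions not given in the sources used here), and they deposited raw counts per Entrez gene without normalization. Each library held 17943024 to 39839737 counts, which sets the precision of low genes. Symbols came from RefSeq (GRCm38.p6) and matched 25275 of 27179 rows. The 1904 rows without a symbol held at most 0.581% of a library and stayed in the fit. Exon lengths came from GENCODE M21.

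Genes were filtered with filterByExpr (minimum count 10), scaled with trimmed mean factors and fitted in edgeR 4.0.16 (R 4.3.3) with exposure as the single term, over 14966 genes. The quasi-likelihood test was used with Benjamini-Hochberg adjustment. Intervals are 95%. As alternatives, DESeq2 1.42.0 and the likelihood ratio test of edgeR were run, as were limma 3.58.1 (voom), a test against the 25% difference, 3 other scalings, 2 other filters, the number in the sample names as a term or a restriction, offsets for length and GC content, and leaving out each library. The code was tested on simulated data. All 8 libraries were used, although the methods of the study give n = 3 per group. The closest pair within a group (FA replicates 2 and 4) differed by more than counting noise. Its chi-square per gene was 5.06, where the next closest pair (DE replicates 1 and 7) was at 16.0. Whether FA replicates 2 and 4 shared a heart or a preparation was not tested.

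Called members and those averaging 5 CPM or more are given by library, and the rest by range or total. Members, lists and this rule were chosen with earlier results of these data known.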

Additional observations from a re-analysis of the deposited data

Results flagged for a closer look

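In 3 of 50 groups of 4 libraries, 1 library stood apart from the other 3 by Dixon's ratio (gap to the nearest library over the whole range, with 0.829 as the 95% critical value). Chance gives about 1 in 20, here 2.5. Adamts4 in DE had a ratio of 0.905, with DE replicate 5 at 8.21 CPM and the others at 15.01 to 15.7 CPM. Adamts17 in DE had a ratio of 0.85, also through DE replicate 5, at 5.79 CPM against 7.89 to 8.26 CPM. Mmp28 in FA had a ratio of 0.885, with FA replicate 4 at 8.07 CPM against 5.93 to 6.18 CPM.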

How the results depend on the processing

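The number of members called, 1 in the edgeR quasi-likelihood test (5.8% of all genes called), was 4 with DESeq2 (Adamts14, Adamts6, Mmp14 and Mmp2; 10.9%), 5 with the likelihood ratio test (these and Adamts16; 10.7%) and 8 of 32 with offsets for length and GC content (11.0%). It was 2 with library totals alone (6.82% of all genes) and 2 without a filter (3.98%). It was 0 with a mean of at least 1 CPM (6.29%), with the number in the sample name as a term (2.99%) and with the libraries of number 11 only (1.75%). It was 1 with voom (5.75% of all genes), the built-in 25% difference (0.762%), relative log expression factors (5.75%) and upper quartile factors (5.77%). Leaving out single libraries gave 0 to 1 members, where 1.53% to 7.93% of all genes were called. The count was 0 without FA replicate 2 (1.69% of all genes) and without DE replicate 3 (1.82%). The offsets added Adamts1, Adamts14, Adamts20, Adamts6, Mmp11, Mmp14 and Timp3. Adamts16 was not testable with a mean of at least 1 CPM, with number 11 only, and without FA replicate 2 or DE replicates 1, 3 or 5; otherwise the cause was not tested.

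Of 493 refitted fold changes over 25 members, 452 stayed on the same side of 0 and of the threshold, 18 passed it, 1 no longer passed it (Adamts16, -1.77 with the number as a term) and 22 changed sign. With the number 11 only and with the number as a term, Adamts12 turned to 0.27 and 0.27, Adamts3 to 0.13 and 0.14, Adamts8 to 0.11 and 0.11, and Mmp28 to 0.077 and 0.082. Both settings compare the DE libraries of number 11 with FA and are not separate evidence. With library totals, Adamts3 was at 0.035 and Adamts7 at 0.017. With offsets, Adamts3 was at 0.027 and Mmp23 at -0.0001. Leaving out single libraries, Adamts19 ranged from -0.075 to 0.092, Adamts5 from -0.017 to 0.19, Adamts3 from -0.15 to 0.054, Adamts8 from -0.44 to 0.044 and Mmp28 from -0.23 to 0.013. None of these reversed values was called.

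No paired analysis was possible because FA and DE share 1 replicate number and nothing ties same-numbered pups. Adamts16, at 57 counts, and the 14 untested members, at 83 or fewer each, had too few counts to show small differences.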
